A study of Mus musculus with 19 samples.

Results

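MED1 knockout 3T3-L1 cells were followed over the first 2 days after hormonal stimulation, and the 4 arrays that hold them are described here out of 19 in the series. 3T3-L1 is a line of mouse fibroblasts that hormones can convert to fat cells, and MED1 is a subunit of Mediator, the complex that carries signals from transcription factors to RNA polymerase II. RNA was labelled with the GeneChip WT PLUS kit and read on whole-transcript microarrays. The members are the 2 arrays titled MED1-KO day 2 (KO day 2, after stimulation) and the 2 titled MED1-KO day 0 (KO day 0, before it), and the features are the 22180 genes that remain of 41345 transcript clusters when clusters with exactly 1 gene symbol are kept and the brightest cluster stands for its gene. The reference for the response is the unmodified line, with 2 arrays on day 2 (WT day 2) and 2 on day 0 (WT day 0). The other 11 arrays are of brown fat from Myf5CreMed1f/w and Myf5CreMed1f/f embryos and from Med1f/f and AdipoqCreMed1f/f adults. They enter no comparison here, but their values count in the mean by which the brightest cluster was chosen and in an alternative fit of all 19 arrays.

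The knockout was made with CRISPR/Cas9, and each knockout array holds RNA pooled from individual clones, whereas the WT arrays are of the parental line. Effects of cloning therefore cannot be told apart from loss of MED1 where KO and WT are compared. The composition of the hormone mixture is not given in the labels. Titles and source labels disagree on the day of some arrays: KO day 2 replicate 1 carries the source label of unstimulated cells, and KO day 0 replicate 2 carries that of stimulated cells, and the same holds for the WT arrays. Days were taken from the titles. Wherever 2 values are given for a day, replicate 1 comes first and replicate 2 after it, so the conflicting source labels belong to the first value of day 2 and the second value of day 0. Nothing in the labels says that replicates are separate cultures, so the spread behind each p-value may be purely technical, and having 2 arrays in a group limits the precision. Values are log2 levels as deposited, ± is the standard error of a log2 fold change, and a gene is called where limma gives an adjusted p under 0.05.

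Conversion of 3T3-L1 cells is usually started with insulin, a glucocorticoid and an agent that raises cAMP. The glucocorticoid receptor and the cAMP pathway switch on C/EBP-beta and C/EBP-delta, these switch on C/EBP-alpha and the nuclear receptor PPAR-gamma, and PPAR-gamma with its partner RXR then turns on the genes of lipid uptake and storage. MED1 is known as the Mediator subunit that nuclear receptors, PPAR-gamma among them, contact when they bind their ligands. In the same period the confluent fibroblasts usually divide again and rebuild their matrix.

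Med1 itself had 7.08 and 6.996 on the log2 scale on the KO day 2 arrays, against 7.07 and 7.16 on the KO day 0 arrays. It had 8.55 and 8.28 on the WT day 2 arrays and 8.23 and 8.48 on the WT day 0 arrays, so every KO array lay below every WT array. Probes outside the edited exon still read RNA of an edited gene, and the remaining signal says nothing about the protein. The 2 KO arrays of a day correlated over genes at 0.993 on day 2 and at 0.993 on day 0, and their median absolute difference per gene was 0.148 on day 2 and 0.142 on day 0. The 11 measured fibroblast markers averaged 9.33 and 9.32 on day 2, against 9.97 and 9.78 on day 0, with none under an array's lower quartile. The marker lists of other cells averaged between 3.93 and 5.24 on the 4 KO arrays, namely mature adipocytes (6 genes measured), brown adipocytes (8), macrophages and other leukocytes (7), epithelium (7), endothelium (6) and skeletal muscle (8). Ptprc, Emcn, Myh3 and Elovl3 lay under the lower quartile on all 4 KO arrays. No marker of mature adipocytes, leukocytes, epithelium or endothelium was called between the days, and Ppargc1a (brown adipocytes) and Des (skeletal muscle) fell.

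In KO cells, 1265 of 22180 genes (5.7%) passed an adjusted p of 0.05 between day 2 and day 0, with 474 higher (2.14%) and 791 lower (3.57%) on day 2. Among the 1265, 193 were at least 2-fold higher and 306 at least 2-fold lower, and 29 and 39 passed 4-fold. The median fold was 1.85 among the genes that rose and 1.84 among those that fell. The smallest called change was 0.487 on the log2 scale, and 3840 genes passed an unadjusted p of 0.05. On all 1265 genes the arrays of the 2 days did not overlap, which by itself is common: 24.6% of all genes lay higher without overlap and 23.3% lower. The median log2 fold change over all genes was 0.013. In WT cells more genes were called, 9.07% of all, with 3.44% higher and 5.64% lower on day 2. WT counts for the lists below are to be read beside these larger shares. With the days of the source labels, which set the replicate 2 arrays against the replicate 1 arrays, 0 genes were called. With the 2 conflicting KO arrays left out, 1 array of each day remained beside the 4 WT arrays, and 221 genes were called on the assumption that the lone KO arrays vary as the WT arrays do, 215 of them among the 1265. Leaving out 1 KO array at a time left 496 to 605 calls.

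**Figure D1:**
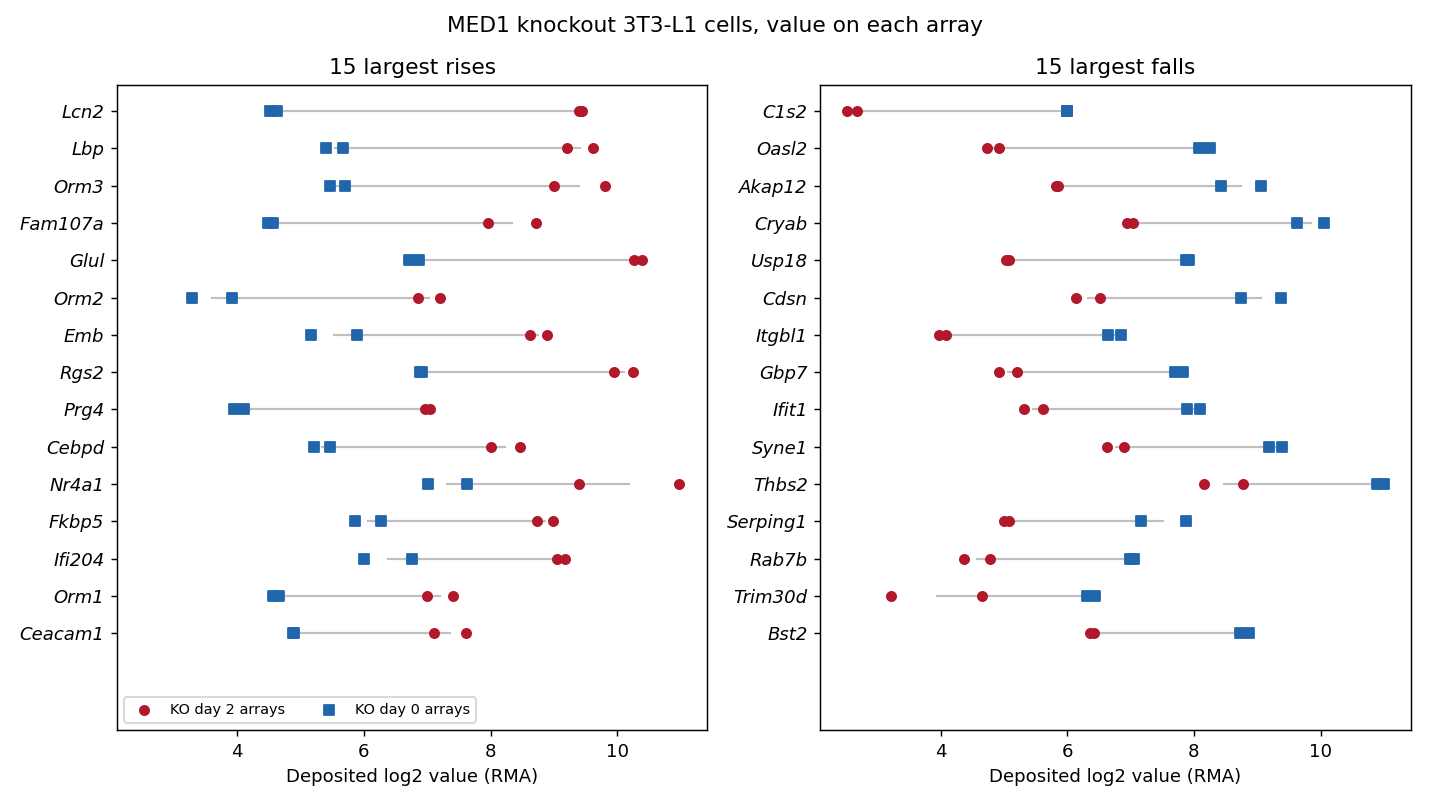
Deposited log2 values (horizontal axis) of the 15 genes with the largest rises and the 15 with the largest falls among called genes, on the 2 KO day 2 arrays (red circles) and the 2 KO day 0 arrays (blue squares), with a grey line between the group means. The 30 genes were taken only from called genes whose arrays of the 2 days do not overlap, and the widest gap among them is that of Lcn2.

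Genes known as targets of the glucocorticoid receptor formed the list with the highest median, and 73.1% of them were called, beside 5.7% of all genes. Of 26 measured members, 18 rose and 1 fell (Anxa1), and the median log2 fold change was 1.35 against 0.013 over all genes. Between 13 and 15 of the rises passed with 1 KO array left out, and 12 passed on the arrays whose labels agree. In WT cells 17 rose and 1 fell, with a median of 1.30. Fam107a, which encodes a stress-responsive actin-binding protein, had 7.95 and 8.72 on the day 2 arrays, against 4.57 and 4.48 on the day 0 arrays. Both day 2 values lay above both day 0 values by more than 3 log2 units, and the gene rose by 3.81 ± 0.22, adjusted p = 6.69e-05. Glul, which encodes glutamine synthetase, had 10.27 and 10.39 on day 2, against 6.71 and 6.87 on day 0. It rose 11.7-fold (3.54 ± 0.14, adjusted p = 9.69e-06), and the 2 arrays of each day lay close together. Fkbp5, which encodes a co-chaperone that damps the glucocorticoid receptor, had 8.73 and 8.99 on day 2, against 5.85 and 6.27 on day 0, a rise of 2.80 ± 0.17, adjusted p = 8.5e-05. Tsc22d3, which encodes the anti-inflammatory protein GILZ, had 7.62 and 7.90 on day 2, against 5.95 and 5.86 on day 0, a rise of 1.85 ± 0.16, adjusted p = 0.000313. The arrays of the days did not overlap for either gene. Zbtb16, a zinc-finger transcription factor, had 7.06 and 6.75 on day 2, against 5.12 and 4.73 on day 0, and rose by 1.98 ± 0.18, adjusted p = 0.000409. Per1, a circadian repressor that glucocorticoids also induce, had 10.02 and 9.53 on day 2, against 8.17 and 7.33 on day 0, and rose by 2.03 ± 0.35, adjusted p = 0.00971. The 2 day 0 arrays of Per1 stood well apart, and its call was lost when KO day 2 replicate 1 or KO day 0 replicate 2 was left out. The other genes of the list that rose were Cebpd, Errfi1, Dusp1, Ddit4, Bcl6, Sult1a1, Lpin1, Gadd45g, Hsd11b1, Nfkbia, Klf9 and Pdk4. Klf15, a target in many tissues, was not called, with 3.71 and 4.25 on day 2, against 3.65 and 3.52 on day 0. Nr3c1, the receptor itself, had 8.29 and 8.56 on day 2, against 9.01 and 8.90 on day 0, and missed the threshold at -0.53 ± 0.13, adjusted p = 0.0521.

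The promoter of Fam107a is shown because, of the 17 called glucocorticoid targets with a promoter in the RefSeq table, only it held a palindromic glucocorticoid response element. The letters are G, any base, ACA, any 3 bases, TGT, any base, C, which read the same on both strands. The search ran from 250 bases before to 50 after the start. The sequence is from RefSeq on GRCm38.p6, chr14:8309730-8310029, minus strand, with the match in capitals, at -118 from the start. With a second annotated start the same match lies at -120.
Fam107a promoter: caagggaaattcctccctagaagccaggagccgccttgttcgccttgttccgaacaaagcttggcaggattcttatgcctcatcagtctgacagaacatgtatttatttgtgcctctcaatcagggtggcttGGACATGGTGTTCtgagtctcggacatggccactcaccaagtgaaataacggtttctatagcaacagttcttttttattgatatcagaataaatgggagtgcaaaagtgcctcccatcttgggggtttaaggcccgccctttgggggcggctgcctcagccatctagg
Over the 16999 tested genes with a promoter in the RefSeq table, 0.535% held these letters. So did 3 of the 23 glucocorticoid targets with a promoter, 1 of the 17 that were called and 2 of the 6 that were not. A window of this length leaves out distant enhancers, and a match is a description of letters, not a binding site.

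Genes of the cAMP response had more rises than falls, and 35% of them were called, beside 5.7% of all genes. Of 20 measured, 6 rose and 1 fell, with a median log2 fold change of 0.43, and 3 to 8 rises were called with 1 KO array left out. WT cells had 7 rises and 1 fall with a median of 0.49. Rgs2, a brake on G-protein signals, had 10.25 and 9.95 on day 2, against 6.89 and 6.92 on day 0. The 2 arrays of a day stood close together and the rise was 9.16-fold (3.19 ± 0.18, adjusted p = 6.38e-05). Nr4a1, an orphan nuclear receptor and immediate early gene, had 10.97 and 9.39 on day 2, against 7.62 and 7.01 on day 0. Its day 2 arrays stood apart by more than 1 log2 unit, and the rise of 2.86 ± 0.57, adjusted p = 0.0194 was called in 1 of the 4 fits without a KO array, that without KO day 2 replicate 2. Pde3b, the phosphodiesterase through which insulin lowers cAMP, had 8.004 and 8.13 on day 2, against 6.55 and 6.12 on day 0, a rise of 1.73 ± 0.18, adjusted p = 0.000657. Pde4b, Pde4d and Sik1 also rose.

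Genes of insulin and IGF signalling had 4 rises and 2 falls among 22 measured and a median of -0.082 (1 or 2 rises and 1 or 2 falls without 1 KO array). Irs1, the adaptor of the insulin and IGF-1 receptors, had 7.08 and 7.07 on day 2, against 8.93 and 8.08 on day 0. It fell by 1.42 ± 0.31 (adjusted p = 0.0273), and day 0 replicate 1 lay above day 0 replicate 2. Igf1, the growth factor, had 6.91 and 6.99 on day 2, against 8.19 and 7.87 on day 0, and fell by 1.08 ± 0.16 (adjusted p = 0.00409). Foxo1, a transcription factor that insulin keeps out of the nucleus, had 8.50 and 8.24 on day 2, against 7.47 and 7.25 on day 0, and rose by 1.01 ± 0.18, adjusted p = 0.01. Foxo3, Pik3r1 and Gys1 also rose, and the calls made up 27.3% of the list, beside 5.7% of all genes. Irs1 kept its call in 1 of the 4 fits without a KO array and Foxo1 in 2. Slc2a4, the insulin-responsive glucose transporter, was not called, with 4.38 and 4.33 on day 2, against 4.63 and 4.31 on day 0.

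IGF binding proteins, which hold IGFs outside the cell, included 1 rise and 1 fall among 9 measured (22.2%, beside 5.7% of all genes). Igfbp4 had 9.30 and 9.31 on day 2, against 7.44 and 7.59 on day 0, and rose by 1.79 ± 0.12, adjusted p = 0.000144. Igfbp3 had 5.13 and 4.84 on day 2, against 6.18 and 5.79 on day 0, and fell by 0.999 ± 0.17 (adjusted p = 0.00802), a call that was lost without KO day 0 replicate 1 or without KO day 2 replicate 2. In WT cells Igfbp3 had 5.63 and 5.73 on day 2, against 4.66 and 4.81 on day 0, and rose by 0.95 (adjusted p = 0.00723). The KO response minus the WT response was -1.95, which did not pass its own test (adjusted p = 0.103).

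Regulators that promote fat cell formation rose in part, with 33.3% called, beside 5.7% of all genes. Of 27 measured, 8 rose and 1 fell (Zfp423), with a median log2 fold change of 0.34, and in each of the 4 fits without a KO array 5 rises passed. On the arrays whose labels agree 3 passed. The WT counts were 10 and 1. The early factors came first in size. Cebpd had 8.46 and 8.001 on day 2, against 5.21 and 5.46 on day 0, and rose 7.46-fold (2.90 ± 0.21, adjusted p = 0.000156). Cebpb had 8.86 and 8.91 on day 2, against 7.21 and 7.20 on day 0. The 2 arrays of each day almost coincided, and the rise was 1.68 ± 0.14, adjusted p = 0.000313. Klf5, which C/EBP-beta and C/EBP-delta induce, had 8.19 and 8.50 on day 2, against 5.94 and 6.15 on day 0, a rise of 2.30 ± 0.17, adjusted p = 0.000161. WT cells rose by 2.78 for Cebpd, 1.83 for Cebpb and 2.69 for Klf5, and none of the 3 differences between genotypes passed (adjusted p = 1.0 for each).

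The later factors had smaller changes in KO cells. Pparg, the receptor that drives fat cell genes, had 5.84 and 5.87 on day 2, against 5.02 and 5.10 on day 0, and rose by 0.80 ± 0.13, adjusted p = 0.00633. In WT cells it had 7.94 and 7.80 on day 2, against 5.93 and 5.76 on day 0, a rise of 2.02 (adjusted p = 4.01e-05). Both KO day 2 arrays lay within the range of the WT day 0 arrays. The difference of the responses was -1.22 and did not pass (adjusted p = 0.184). Cebpa had 5.88 and 5.75 on day 2, against 5.15 and 4.95 on day 0, a rise of 0.76 ± 0.13, adjusted p = 0.0087, and in WT cells 7.17 and 7.18 on day 2, against 5.53 and 5.46 on day 0. The WT rise was 1.68, and the difference of -0.92 had an adjusted p of 0.525. Rxra, the partner of PPAR-gamma, had 8.77 and 8.82 on day 2, against 7.93 and 7.79 on day 0, and rose by 0.93 ± 0.14, adjusted p = 0.00416 (WT 1.25). The calls of Pparg and Cebpa were each kept in 2 of the 4 fits without a KO array, and the size of neither moved outside 0.659 to 0.861.

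**Figure D2:**
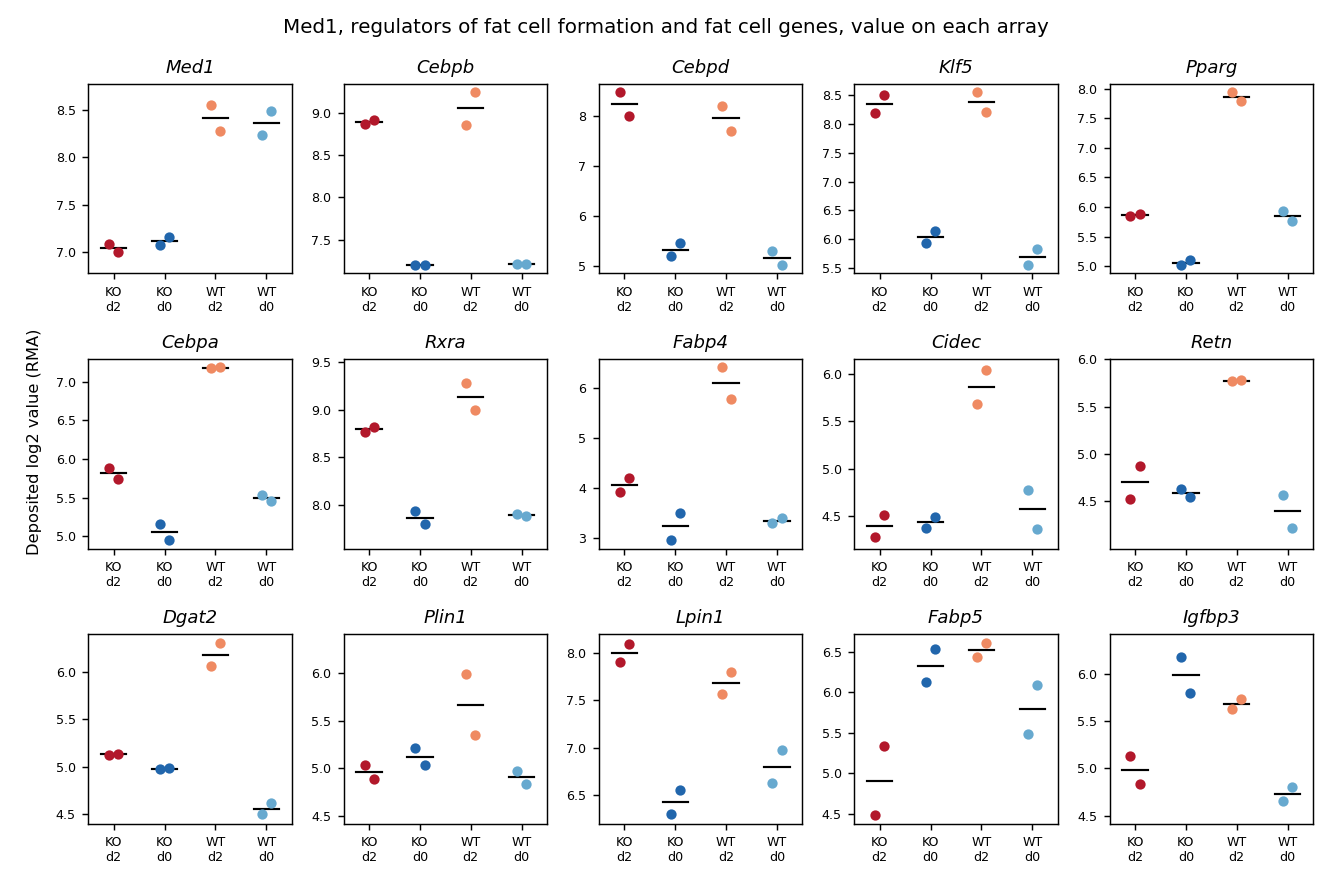
Deposited log2 values (vertical axis, a scale of its own for each gene) of Med1, regulators and fat cell genes on the 2 arrays each of KO day 2, KO day 0, WT day 2 and WT day 0, with black bars for group means. Cebpb, Cebpd and Klf5 reach like values on day 2 in both genotypes, while Pparg, Cebpa, Fabp4, Cidec, Retn and Dgat2 are lower on both KO day 2 arrays than on both WT day 2 arrays.

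Among genes listed here as restraining fat cell formation, 4 of 25 rose and 4 fell (32%, beside 5.7% of all genes), and the median was -0.13. The role of each listed gene in these cells was not tested, and single members may act otherwise. The inhibitors of helix-loop-helix factors rose. Id2 had 9.67 and 9.03 on day 2, against 8.15 and 8.17 on day 0 (1.19 ± 0.21, adjusted p = 0.0115), and Id3 had 8.30 and 7.62 on day 2, against 6.84 and 6.74 on day 0 (1.17 ± 0.22, adjusted p = 0.0145). Day 2 replicate 1 was the higher day 2 array for both. Id1 and Foxc2 rose as well. Runx1t1, which blocks C/EBP-beta, had 8.31 and 8.10 on day 2, against 9.52 and 9.25 on day 0, and fell by 1.18 ± 0.18 (adjusted p = 0.0056). Dlk1, the surface protein known as Pref-1 that marks preadipocytes, had 10.22 and 9.93 on day 2, against 11.20 and 10.73 on day 0, and fell by 0.89 ± 0.21 (adjusted p = 0.0415). Klf6 and Klf3, also on the list, fell. Of these, Dlk1 kept its call in none of the 4 fits without a KO array, Id2 and Id3 in 1 and Runx1t1 in 2, so that 1 to 4 rises and 0 to 2 falls of the list passed there. Gata2, another restraining factor, was not called, with 6.29 and 6.33 on day 2, against 7.34 and 6.89 on day 0.

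Targets of PPAR-gamma and genes of mature fat cells had 5 calls in KO cells and 12 in WT cells. Over all genes 5.7% were called in KO and 9.07% in WT cells. Of 33 measured, 3 rose (Lpin1, Lipe and Dgat1) and 2 fell (Fabp5 and Plin4), which is 15.2% beside 5.7% of all genes, with a median log2 fold change of 0.089. In WT cells 11 rose and 1 fell, with a median of 0.43. Without 1 KO array 1 or 2 rises and 0 or 1 falls were called in KO cells. The 33 differences between the genotypes had a median of -0.30 and none passed. Fabp4, the fatty acid carrier of fat cells, had 3.92 and 4.20 on day 2, against 2.97 and 3.51 on day 0. Both day 0 arrays lay under their lower quartile. The day 2 mean lay 1.46-fold above that quartile, a figure that leaves out the spread between arrays. The change of Fabp4 was not called (0.82 ± 0.24, adjusted p = 0.0882). In WT cells Fabp4 had 6.40 and 5.77 on day 2, against 3.30 and 3.40 on day 0. The WT day 2 mean lay 5.97-fold above the lower quartile, and the WT rise was called (adjusted p = 0.000171). The difference of -1.91 had an adjusted p of 0.329.

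Cidec, Dgat2 and Plin1, genes of triglyceride storage, were not called in KO cells. Cidec, which fuses lipid droplets, had 4.28 and 4.51 on day 2, against 4.38 and 4.49 on day 0, with overlapping days (adjusted p = 0.955). Its WT values were 5.68 and 6.04 on day 2, against 4.78 and 4.37 on day 0, a rise of 1.29 (adjusted p = 0.00232). Dgat2, which makes triglyceride, had 5.12 and 5.14 on day 2, against 4.97 and 4.98 on day 0 (adjusted p = 0.66). In WT cells it had 6.06 and 6.30 on day 2, against 4.50 and 4.62 on day 0, a rise of 1.62 (adjusted p = 0.000113), and the difference of -1.47 did not pass (adjusted p = 0.105). Plin1, which coats the droplet, had 5.04 and 4.88 on day 2, against 5.21 and 5.04 on day 0, and was not called in KO cells (adjusted p = 0.781). The WT change of Plin1 was 0.77 (adjusted p = 0.0427).

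Secreted and uptake genes were also uncalled in KO cells. Retn, the hormone resistin, had 4.53 and 4.87 on day 2, against 4.63 and 4.55 on day 0, while WT cells rose by 1.38 (adjusted p = 0.000896). Adipoq, the hormone adiponectin, had 3.38 and 3.69 on day 2, against 3.40 and 3.49 on day 0, and was called in neither genotype (adjusted p = 0.876 in KO and 0.0783 in WT cells). Lpl, the secreted lipase that releases fatty acids from lipoproteins, had 9.37 and 9.35 on day 2, against 10.27 and 9.44 on day 0, and Cd36, a fatty acid receptor, had 3.43 and 3.73 on day 2, against 3.75 and 3.17 on day 0. For Adipoq, Retn and Cd36 the days overlapped, and for Lpl day 0 replicate 1 stood above the other 3 arrays. Bulk RNA cannot tell a smaller share of converting cells from less RNA of these genes in each cell.

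The called members of the list went both ways. Lpin1, a phosphatidate phosphatase that is also among the glucocorticoid targets, had 7.91 and 8.09 on day 2, against 6.31 and 6.55 on day 0, and rose by 1.57 ± 0.17, adjusted p = 0.000846, with 0.88 in WT cells. Fabp5, another fatty acid carrier, had 4.48 and 5.34 on day 2, against 6.13 and 6.53 on day 0, and fell by 1.42 ± 0.29 (adjusted p = 0.0212). Its WT arrays ran the other way, with 6.43 and 6.61 on day 2, against 5.49 and 6.09 on day 0, though neither the WT change (adjusted p = 0.172) nor the difference of -2.15 (adjusted p = 0.451) passed. Plin4, a droplet coat protein, had 6.02 and 5.91 on day 2, against 6.95 and 7.08 on day 0, and fell by 1.05 ± 0.18 (adjusted p = 0.0103). Plin4 kept its call in none of the 4 fits without a KO array and Fabp5 in 1. The call of Fabp5 was also lost with the mean over all clusters of a gene.

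Of 17 genes of fatty acid synthesis, 1 rose and 2 fell (17.6%, beside 5.7% of all genes). Fasn, the fatty acid synthase, had 9.80 and 9.88 on day 2, against 8.83 and 9.12 on day 0, and rose by 0.87 ± 0.20, adjusted p = 0.0325 (WT 0.98). Fads2, a desaturase, had 9.52 and 9.77 on day 2, against 10.26 and 10.25 on day 0, and fell by 0.61 ± 0.14 (adjusted p = 0.0385), and Me1, which supplies NADPH, had 7.59 and 7.73 on day 2, against 8.24 and 8.27 on day 0, and fell by 0.59 ± 0.12 (adjusted p = 0.0243). None of these 3 calls passed in any fit without a KO array. Srebf1, the sterol and lipid regulator, had 7.04 and 6.66 on day 2, against 6.73 and 6.04 on day 0, and Scd1, a desaturase, had 8.55 and 8.59 on day 2, against 7.83 and 9.07 on day 0. Neither was called, and for Scd1 day 0 replicate 2 was the highest of the 4 KO arrays. In cholesterol synthesis limma called 0 of 18 genes, with 2 higher and 2 lower at an unadjusted p of 0.05, a median of -0.095 and at most 1 called in either direction under any other setting.

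Of 20 genes of fatty acid oxidation 2 rose and 1 fell (15%, beside 5.7% of all genes). Cpt1a, which admits fatty acids to mitochondria, had 7.75 and 7.80 on day 2, against 8.78 and 8.42 on day 0, and fell by 0.82 ± 0.17 (adjusted p = 0.0202). Pdk4, which blocks pyruvate dehydrogenase, had 7.41 and 7.46 on day 2, against 6.90 and 6.54 on day 0 (0.71 ± 0.17, adjusted p = 0.0465), and Cpt2 had 7.99 and 8.14 on day 2, against 7.53 and 7.51 on day 0 (0.54 ± 0.12, adjusted p = 0.0302). Of 22 genes of the citric acid cycle and its supply, 2 rose and 0 fell (9.09%). Pcx, pyruvate carboxylase, which feeds the cycle with oxaloacetate, had 8.27 and 8.15 on day 2, against 6.65 and 6.43 on day 0. It rose 3.18-fold (1.67 ± 0.17, adjusted p = 0.000657) and 2.33 on the log2 scale in WT cells. Idh2, a mitochondrial dehydrogenase, had 10.58 and 10.37 on day 2, against 9.94 and 9.62 on day 0 (0.70 ± 0.15, adjusted p = 0.0308). Pdk4, Cpt2 and Idh2 were called in none of the fits without a KO array and Cpt1a in 1. In the respiratory chain limma called 0 of 29 genes under every setting, with 5 higher and 0 lower at an unadjusted p of 0.05 and a median of 0.12.

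Genes of the hypoxia response and glycolysis had 5 rises and 0 falls among 21 (3 to 5 rises without 1 KO array, 0 on the arrays whose labels agree), with a median of 0.31, and 8 rises in WT cells. Vegfa, the vascular growth factor, had 10.56 and 10.17 on day 2, against 8.88 and 8.61 on day 0, and rose by 1.62 ± 0.20, adjusted p = 0.0016. Pfkp, a phosphofructokinase, had 9.10 and 9.15 on day 2, against 7.96 and 8.08 on day 0 (1.10 ± 0.14, adjusted p = 0.00198). Egln3, an oxygen-sensing hydroxylase, had 7.33 and 7.20 on day 2, against 6.21 and 6.24 on day 0 (1.04 ± 0.13, adjusted p = 0.00213). Pfkl and Bnip3 also rose, and, as for all called genes, the arrays of the days did not overlap. The 5 calls were 23.8% of the list, beside 5.7% of all genes. Members ranged from -1.58 to 1.62, and 1 was lower at an unadjusted p of 0.05. On the arrays whose labels agree the calls of these rises were lost and a fall was called.

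Of 33 Mediator subunits measured, Med13l and Med9 rose and none fell, a share of 6.06% near the 5.7% of all genes, with a median of 0.040, and 3 rose in WT cells. Med13l, a subunit of the kinase module, had 9.92 and 9.95 on day 2, against 9.29 and 9.08 on day 0 (0.75 ± 0.14, adjusted p = 0.0147). Med9, a subunit of the middle module, had 7.48 and 7.43 on day 2, against 6.87 and 6.90 on day 0 (0.57 ± 0.12, adjusted p = 0.0266). Med13l kept its call in 1 of the 4 fits without a KO array and Med9 in none. Of 20 coactivators and corepressors 1 rose and 1 fell (10%, beside 5.7% of all genes). Nrip1, the corepressor RIP140, had 8.14 and 8.52 on day 2, against 7.30 and 7.22 on day 0, and rose by 1.07 ± 0.15, adjusted p = 0.00323. Ppargc1a, the coactivator PGC-1-alpha, had 4.38 and 4.99 on day 2, against 5.57 and 5.79 on day 0, and fell by 0.99 ± 0.24 (adjusted p = 0.0469), a call kept in 1 of those 4 fits. It was also lost in 5 of 14 other fits, those of all 19 arrays, with either rescaling of the arrays and without a WT day 2 array.

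Among cell cycle genes the share called was 3.57% for DNA replication, 2.94% for mitosis and 16% for G1 to S control, beside 5.7% of all genes. In DNA replication, Pcna, the sliding clamp of the polymerase, was the only one of 28 to be called, with 9.19 and 8.97 on day 2, against 8.03 and 8.33 on day 0 (0.90 ± 0.15, adjusted p = 0.00936). WT cells had 10 rises in this list, where 3.44% of all genes were called higher in WT cells. The medians of the list were 0.15 in KO and 0.42 in WT cells. Without 1 KO array 0 to 2 genes of the list were called, and none of the 28 differences between genotypes passed. Of 34 mitosis genes, 31 had a positive value and 1 was called, with a median of 0.35. Top2a, the topoisomerase that untangles chromosomes, had 8.60 and 8.57 on day 2, against 6.26 and 6.75 on day 0, and rose 4.23-fold (2.08 ± 0.28, adjusted p = 0.00269). The mean over the mitosis list was 6.74 and 6.48 on day 2, against 5.96 and 6.48 on day 0, so day 0 replicate 2 lay at the level of day 2 replicate 2. In WT cells the mean was 6.99 and 6.81 on day 2, against 6.18 and 6.95 on day 0. Among 25 genes of G1 to S control 1 rose and 3 fell. Myc had 9.81 and 9.08 on day 2, against 7.79 and 7.70 on day 0, and rose by 1.70 ± 0.28, adjusted p = 0.00701. Ccnd1, cyclin D1, had 7.65 and 7.73 on day 2, against 8.97 and 9.31 on day 0, and fell by 1.45 ± 0.18 (adjusted p = 0.00169). Ccnd2, cyclin D2, had 9.38 and 9.17 on day 2, against 10.27 and 10.29 on day 0, and fell by 1.004 ± 0.13 (adjusted p = 0.00248), and Cdk6 fell as well. Pcna and Myc were called in 2 of the 4 fits without a KO array.

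Interferon-stimulated genes, which cells use against viruses and which type I interferon turns on, had the most falls of the 41 lists. The share called was 63%, beside 5.7% of all genes. Of 46 measured, 28 fell and 1 rose (Samhd1), with a median log2 fold change of -0.94. Between 20 and 24 falls passed without 1 KO array and 12 on the arrays whose labels agree. The mean over the list was 5.15 and 5.16 on day 2, against 6.23 and 6.28 on day 0. In WT cells 37 fell and 1 rose, with a median of -2.12, and the list mean was 5.21 and 5.34 on day 2, against 7.06 and 7.41 on day 0. The KO and WT means were thus close on day 2, and on day 0 both KO arrays lay below both WT arrays. None of the 46 differences of the responses passed, and their median was 0.77.

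Oasl2, a relative of the oligoadenylate synthetases, had 4.73 and 4.92 on day 2, against 8.07 and 8.25 on day 0, and was 10.1-fold lower (-3.33 ± 0.31, adjusted p = 0.000422). Usp18, which strips ISG15 from proteins and damps the interferon receptor, had 5.03 and 5.08 on day 2, against 7.87 and 7.92 on day 0 (-2.84 ± 0.28, adjusted p = 0.000637). Gbp7, a guanylate-binding protein, had 5.21 and 4.92 on day 2, against 7.70 and 7.82 on day 0 (-2.70 ± 0.18, adjusted p = 0.000115). For all 3 the arrays of a day lay close together and the days lay more than 2 log2 units apart. Ifit1, which binds viral RNA, had 5.61 and 5.31 on day 2, against 7.89 and 8.10 on day 0 (-2.54 ± 0.32, adjusted p = 0.00199). Bst2, the surface protein tetherin that holds virus at the membrane, had 6.42 and 6.36 on day 2, against 8.86 and 8.72 on day 0 (-2.41 ± 0.19, adjusted p = 0.000193). WT cells changed by -4.55 for Oasl2, -4.35 for Usp18, -3.48 for Gbp7, -4.30 for Ifit1 and -2.94 for Bst2. The other falls were of Mx2, Ifit2, Apol9b, Gbp3, Xaf1, Rtp4, Iigp1, Igtp, Cmpk2, Irgm1, Parp9, Parp14, Isg15, Herc6, Oas1b, Zbp1, Ddx58, Apol9a, Isg20, Trim21, Ifi27, Dhx58 and Parp12. Many of these belong to families of close copies, such as Apol9a with Apol9b, and how far the probes tell the copies apart was not tested.

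The regulators of the response moved with it in part: of 21 measured, 5 fell and 1 rose (Irf2), or 28.6%, beside 5.7% of all genes. Irf9, the DNA-binding subunit of the interferon-activated factor, had 6.40 and 6.25 on day 2, against 7.68 and 7.85 on day 0, and fell by 1.44 ± 0.15 (adjusted p = 0.000849). Stat2, its partner, had 6.54 and 6.46 on day 2, against 7.93 and 7.87 on day 0, and fell by 1.40 ± 0.15 (adjusted p = 0.000897). Tlr3, a sensor of double-stranded RNA, had 5.64 and 6.06 on day 2, against 7.47 and 7.64 on day 0, and fell by 1.71 ± 0.22 (adjusted p = 0.0021). Sting1 and Irf1 fell too, and 4 falls and no rise of the list were called in each fit without a KO array. Ifi204, of the interferon-inducible p200 family, was not in the lists and rose, with 9.17 and 9.05 on day 2, against 5.997 and 6.76 on day 0 (2.73 ± 0.25, adjusted p = 0.000409).

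**Figure D3:**
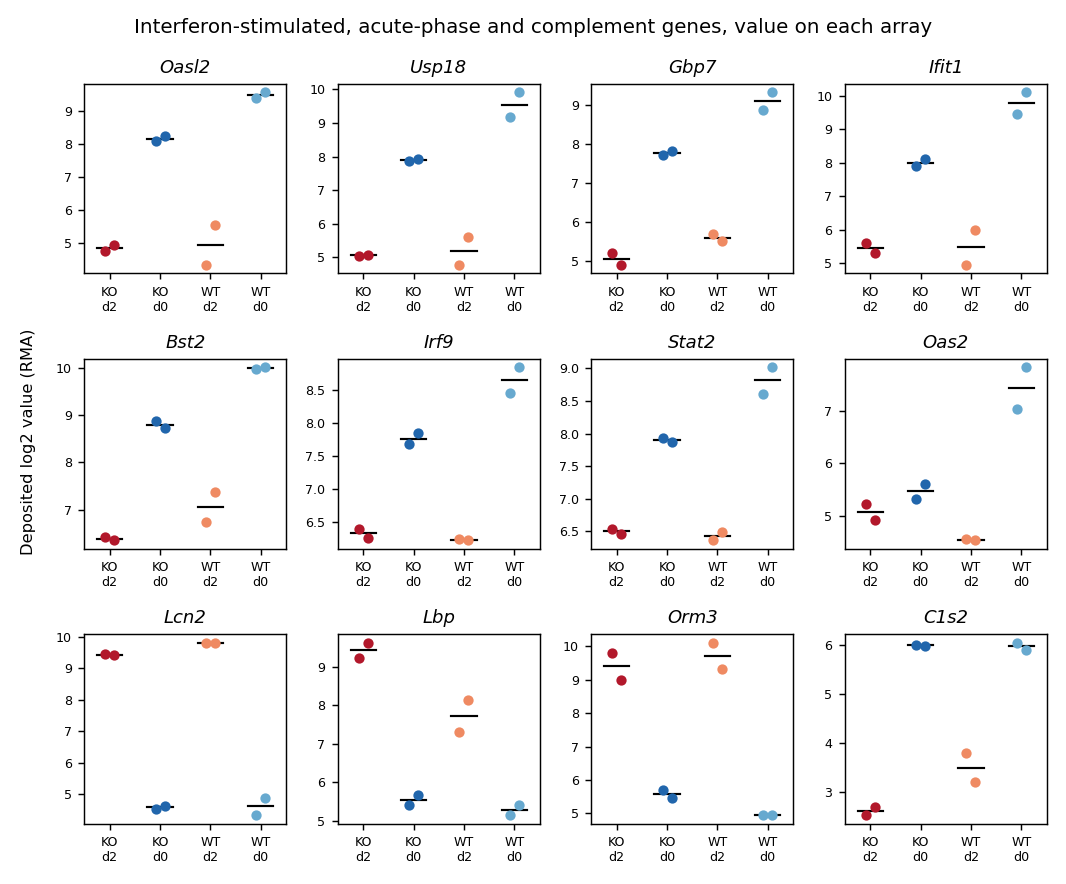
Deposited log2 values (vertical axis, a scale of its own for each gene) of interferon genes (upper 2 rows) and of acute-phase and complement genes (bottom row) on the 2 arrays each of KO day 2, KO day 0, WT day 2 and WT day 0, with black bars for group means. Oasl2 to Stat2 are lower on day 2 in both genotypes, Oas2 lies closer together between the KO days than between the WT days, Lcn2, Lbp and Orm3 are higher on day 2 in both, and C1s2 is lower.

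Promoters of 3 of the genes that fell are shown because they hold the core of the interferon response element, the sequence that the STAT2 and IRF9 complex reads. The search was for GAAA, any 2 bases, GAAA on either strand (TTTC repeats mark the opposite strand), in RefSeq sequence on GRCm38.p6 from 250 bases before to 50 after the start. Capitals mark the matches. Gbp7 lies at chr3:142530086-142530385 on the plus strand, with 1 match at -53 from the start. Ifit1 lies at chr19:34640639-34640938 on the plus strand, with matches at -104 and -85. Bst2 lies at chr8:71537423-71537722 on the minus strand, with 2 overlapping matches at -130 and -124.
Gbp7 promoter: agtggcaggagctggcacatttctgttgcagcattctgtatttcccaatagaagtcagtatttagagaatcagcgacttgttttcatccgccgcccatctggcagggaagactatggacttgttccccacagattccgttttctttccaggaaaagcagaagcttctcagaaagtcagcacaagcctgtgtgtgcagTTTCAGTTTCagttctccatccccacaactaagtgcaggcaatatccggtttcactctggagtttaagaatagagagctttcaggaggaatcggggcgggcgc
Ifit1 promoter: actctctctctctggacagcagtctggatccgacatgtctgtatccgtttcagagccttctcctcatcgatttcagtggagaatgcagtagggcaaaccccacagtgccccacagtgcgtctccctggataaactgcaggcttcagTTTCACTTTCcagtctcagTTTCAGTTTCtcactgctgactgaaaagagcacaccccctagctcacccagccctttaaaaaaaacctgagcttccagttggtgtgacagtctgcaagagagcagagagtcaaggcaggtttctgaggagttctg
Bst2 promoter: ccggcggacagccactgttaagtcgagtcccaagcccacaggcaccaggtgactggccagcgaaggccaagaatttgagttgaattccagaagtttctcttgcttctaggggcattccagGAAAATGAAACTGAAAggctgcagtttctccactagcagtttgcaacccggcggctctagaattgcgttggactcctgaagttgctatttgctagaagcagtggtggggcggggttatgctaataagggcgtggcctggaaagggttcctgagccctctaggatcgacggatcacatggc
Of the 33 interferon-stimulated genes with a promoter in the table, 18 (54.5%) held the core, against 3.88% of all 16999 tested genes with a promoter. Among the called genes of the list 11 of 19 held it (57.9%), and among those not called 7 of 14. Over all genes called lower the share was 5.63%, and over all called higher 3.84%. C/EBP elements (letters TTGCNNCAA) stood in 1.37% of promoters of genes called higher and 2.81% of those called lower, against 2.11% of all, and the cAMP element TGACGTCA in 3.01% and 1.32%, against 2.65%.

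Acute-phase genes, which encode secreted proteins of the innate response, held the largest rises, and 36% were called, beside 5.7% of all genes. Of 25 measured, 9 rose and 0 fell, with a median of 0.54 (6 or 7 rises without 1 KO array, 4 on the arrays whose labels agree), against 12 rises in WT cells. Lcn2, lipocalin 2, which binds bacterial iron carriers, had 9.44 and 9.40 on day 2, against 4.52 and 4.62 on day 0. Its 2 arrays of each day lay close together, and it rose 28.8-fold (4.85 ± 0.17, adjusted p = 6.65e-06), with 5.20 in WT cells. Lbp, which binds bacterial lipopolysaccharide, had 9.21 and 9.62 on day 2, against 5.41 and 5.67 on day 0 (3.88 ± 0.26, adjusted p = 0.000115). WT cells rose by 2.45 for Lbp, and the difference of 1.44 did not pass (adjusted p = 0.824). The orosomucoids, plasma carrier proteins, rose together. Orm3 had 9.80 and 9.004 on day 2, against 5.69 and 5.46 on day 0 (3.83 ± 0.29, adjusted p = 0.000161), Orm2 had 6.85 and 7.20 on day 2, against 3.28 and 3.92 on day 0 (3.42 ± 0.25, adjusted p = 0.000156), and Orm1 had 7.40 and 6.999 on day 2, against 4.57 and 4.65 on day 0 (2.59 ± 0.29, adjusted p = 0.00113). The Orm genes are close copies, and how far the probes tell them apart was not tested. Hp, Saa3, Nfkbiz and Il6ra were the other rises.

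Complement genes went the other way, with 5 falls and 0 rises among 20 (25%, beside 5.7% of all genes) and a median of -0.11. C1s2, a relative of the protease C1s, had 2.52 and 2.69 on day 2, against 6.0 and 5.99 on day 0. Both day 2 arrays lay under their lower quartile, and the day 0 mean lay 5.53-fold above that quartile (adjusted p of the fall = 6.38e-05). Serping1, the inhibitor of C1, had 5.08 and 5.002 on day 2, against 7.87 and 7.16 on day 0 (-2.47 ± 0.30, adjusted p = 0.00147), and C1rb, a relative of the protease C1r, had 8.29 and 8.32 on day 2, against 10.20 and 9.76 on day 0 (-1.67 ± 0.21, adjusted p = 0.00211). Clu and Colec12 fell as well. Chemokines were mixed, with 2 rises and 3 falls among 21 (23.8%). Cxcl13, which draws B cells, had 6.02 and 6.63 on day 2, against 4.92 and 4.18 on day 0 and rose by 1.78 ± 0.25, adjusted p = 0.00362. In WT cells Cxcl13 had 8.58 and 8.49 on day 2, against 4.76 and 4.62 on day 0, and the difference of -2.07 did not pass (adjusted p = 0.329). Ccl2, which draws monocytes, had 6.58 and 6.40 on day 2, against 8.03 and 8.39 on day 0, and fell by 1.72 ± 0.17 (adjusted p = 0.000646). Ccl9 had 6.88 and 6.51 on day 2, against 8.23 and 8.60 on day 0, and fell by 1.72 ± 0.24 (adjusted p = 0.00342). Ccl7 fell and Ccl17 rose. Of the 7 leukocyte markers measured, limma called 0 between the days, with 0 at an unadjusted p of 0.05.

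Matrix genes had more falls than rises. The share called was 38.9% for interstitial matrix and 43.5% for matrix proteases, beside 5.7% of all genes. Of 36 genes of the interstitial matrix and fibroblasts, 13 fell and 1 rose (Vcan), with a median of -0.43 (9 to 11 falls without 1 KO array, 9 on the arrays whose labels agree), against 15 falls and 3 rises in WT cells. Thbs2, thrombospondin 2, had 8.17 and 8.77 on day 2, against 10.996 and 10.89 on day 0 (-2.48 ± 0.25, adjusted p = 0.000607). Dcn, decorin, which binds collagen fibrils, had 8.45 and 8.88 on day 2, against 11.02 and 10.96 on day 0, and was 5.01-fold lower (-2.32 ± 0.16, adjusted p = 0.000115). In WT cells the change of Dcn was -1.03, and the difference of -1.30 did not pass (adjusted p = 0.329). Mfap5, a microfibril protein, had 4.90 and 4.95 on day 2, against 7.30 and 6.89 on day 0 (-2.17 ± 0.21, adjusted p = 0.000444). The other falls were of Prelp, Ogn, Thbs1, Mfap4, Fmod, Thbs3, Loxl4, Tnc, Fbln1 and Loxl3. Of the 11 fibroblast markers 4 fell, namely Pdgfrb, Col1a1, Dlk1 and Col1a2.

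Collagens went both ways, with 3 rises and 5 falls among 29 collagen genes and their enzymes (27.6%, beside 5.7% of all genes). Col4a1, a basement membrane collagen, had 9.94 and 10.09 on day 2, against 8.78 and 8.52 on day 0, and rose by 1.36 ± 0.14, adjusted p = 0.000715. Col4a2, its partner chain, had 9.61 and 9.65 on day 2, against 8.64 and 8.08 on day 0 (1.27 ± 0.20, adjusted p = 0.00697). These 2 were the only calls among the 17 genes of the basement membrane list (11.8%), which did not hold Col4a5. Col4a5, a further chain of the same family, fell, with 6.15 and 6.31 on day 2, against 7.66 and 7.44 on day 0 (-1.32 ± 0.13, adjusted p = 0.000602). Col8a1, a short-chain collagen, had 5.09 and 5.45 on day 2, against 7.35 and 6.64 on day 0 (-1.73 ± 0.25, adjusted p = 0.0041). P4ha3, Col1a1 and Col1a2 fell and P4ha2 rose. Col4a2 kept its call in 1 of the 4 fits without a KO array.

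Matrix proteases and their inhibitors had 8 falls and 2 rises among 23, with a median of -0.40 (5 to 7 falls without 1 KO array). Mmp9, a gelatinase, had 6.06 and 6.28 on day 2, against 7.72 and 8.19 on day 0 (-1.79 ± 0.19, adjusted p = 0.000881). Mmp3, stromelysin, had 3.78 and 3.74 on day 2, against 4.99 and 5.66 on day 0 (-1.56 ± 0.20, adjusted p = 0.00237). Timp3, an inhibitor of such proteases, had 3.53 and 4.06 on day 2, against 5.95 and 5.07 on day 0 (-1.72 ± 0.30, adjusted p = 0.01). For Timp3 the 2 day 0 arrays stood well apart, and its call was kept in 2 of the 4 fits without a KO array. Mmp13, a collagenase, was not called in KO cells, with 4.17 and 4.03 on day 2, against 4.43 and 4.64 on day 0 (adjusted p = 0.185). In WT cells Mmp13 had 4.90 and 5.14 on day 2, against 7.54 and 7.22 on day 0, a change of -2.36, and the difference of 1.92 had an adjusted p of 0.103.

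Contractile and actin genes had 7 falls and 0 rises among 26 (26.9%, beside 5.7% of all genes), with a median of -0.28 and 7 falls in WT cells. Without 1 KO array 2 to 4 falls passed. Tpm1, tropomyosin, had 8.37 and 7.60 on day 2, against 9.69 and 9.38 on day 0 (-1.55 ± 0.24, adjusted p = 0.00596). Acta2, smooth muscle actin, had 10.65 and 9.42 on day 2, against 11.43 and 11.32 on day 0. Day 2 replicate 1 lay nearer to the day 0 arrays than to day 2 replicate 2, and Acta2, which fell by 1.35 ± 0.33 (adjusted p = 0.0499), was called in 1 of the 4 fits without a KO array and in 5 of 14 other fits. It was lost in each fit without a WT array, on the KO arrays alone, with the mean over rows, with either rescaling of the arrays and in the robust fit. Ankrd1, a target of mechanical signals, had 5.17 and 4.84 on day 2, against 6.29 and 6.32 on day 0 (-1.30 ± 0.16, adjusted p = 0.00161). Cnn2, Actg2, Myh9 and Actn1 also fell.

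Signalling pathways changed in single members. The share called was 20.5% for the Wnt list and 19.4% for the BMP and TGF-beta list, beside 5.7% of all genes. In the Wnt pathway, which holds back fat cell formation, 5 of 39 rose and 3 fell (0 to 3 rises and 3 falls without 1 KO array). Ccn4, a secreted Wnt target, had 6.46 and 6.84 on day 2, against 8.63 and 8.47 on day 0 (-1.90 ± 0.17, adjusted p = 0.000409). Sfrp2, a secreted Wnt antagonist, had 6.43 and 6.41 on day 2, against 7.93 and 7.60 on day 0 (-1.35 ± 0.20, adjusted p = 0.004). Fzd4, a receptor, had 8.31 and 8.12 on day 2, against 7.26 and 6.50 on day 0 (1.33 ± 0.31, adjusted p = 0.0367). Lrp5, Wnt4, Lef1 and Lgr4 rose and Ccn5 fell. In the BMP and TGF-beta pathway 2 of 36 rose and 5 fell (0 to 2 rises and 2 or 3 falls without 1 KO array). Chrdl1, a BMP antagonist, had 5.09 and 4.75 on day 2, against 7.04 and 6.49 on day 0, and fell by 1.84 ± 0.28 (adjusted p = 0.00527). Its WT change of -0.63 was not called, and the difference did not pass (adjusted p = 1.0). Grem1, another antagonist, had 8.15 and 7.92 on day 2, against 9.03 and 9.61 on day 0 (-1.29 ± 0.22, adjusted p = 0.00953), and Tgfbi, a matrix protein that TGF-beta induces, had 8.36 and 8.96 on day 2, against 9.66 and 10.24 on day 0 (-1.29 ± 0.29, adjusted p = 0.0342). Tgfbi was called in none of the 4 fits without a KO array, Fzd4 in 1, Grem1 in 2 and Chrdl1 in 3.

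Growth factors and their receptors had 4 rises and 5 falls among 32 (1 or 2 rises and 3 or 4 falls without 1 KO array). Pdgfrb, a receptor of platelet-derived growth factor and a marker of the fibroblast state, had 8.63 and 8.63 on day 2, against 10.35 and 10.24 on day 0, and was 3.18-fold lower (-1.67 ± 0.12, adjusted p = 0.000156). Pdgfc, a ligand of that family, had 7.45 and 7.69 on day 2, against 8.98 and 9.16 on day 0 (-1.50 ± 0.14, adjusted p = 0.000427). The WT changes were -1.80 for Pdgfrb and -1.37 for Pdgfc. KO calls made up 28.1% of the growth factor list, beside 5.7% of all genes. In the Notch pathway 2 of 16 rose (12.5%). Hey1, a Notch target, had 6.45 and 6.13 on day 2, against 5.30 and 5.53 on day 0 (0.88 ± 0.17, adjusted p = 0.0142), and the receptor Notch1 had 7.65 and 7.83 on day 2, against 7.07 and 6.99 on day 0 (0.71 ± 0.13, adjusted p = 0.0146). Of 16 prostaglandin genes 1 rose and 2 fell (18.75%). Ptges, which makes prostaglandin E2, had 9.04 and 8.85 on day 2, against 8.25 and 8.22 on day 0 (0.71 ± 0.14, adjusted p = 0.0165). Ptger4, a receptor for it, had 4.90 and 5.33 on day 2, against 6.31 and 6.18 on day 0 (-1.13 ± 0.21, adjusted p = 0.0138), and Ptgis, prostacyclin synthase, had 6.86 and 6.87 on day 2, against 7.54 and 7.74 on day 0 (-0.78 ± 0.12, adjusted p = 0.00697). Notch1 and Ptges were called in none of the fits without a KO array, Ptger4 and Ptgis in 1 and Hey1 in 2.

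Among stress genes, 1 of 20 p53 targets rose and 3 fell (20%), 1 of 27 genes of the unfolded protein and integrated stress response rose and 3 fell (14.8%), and 2 of 26 redox genes rose and 3 fell (19.2%), beside 5.7% of all genes. There was no redox fall and 1 or 2 p53 falls called in any fit without a KO array. Herpud1, an endoplasmic reticulum protein, had 7.85 and 7.78 on day 2, against 9.03 and 8.93 on day 0 (-1.17 ± 0.14, adjusted p = 0.00128), and Ddit3, the C/EBP family member CHOP that blocks the others, had 6.85 and 6.68 on day 2, against 7.70 and 7.61 on day 0 (-0.89 ± 0.13, adjusted p = 0.00355). Fas, a death receptor, had 5.44 and 5.42 on day 2, against 6.84 and 6.68 on day 0 (-1.33 ± 0.14, adjusted p = 0.000846). Eda2r, a receptor of the same superfamily, had 5.23 and 5.33 on day 2, against 6.07 and 6.52 on day 0 (-1.01 ± 0.22, adjusted p = 0.0262). Sesn1, a sestrin, had 8.61 and 8.60 on day 2, against 7.55 and 7.75 on day 0, and rose by 0.95 ± 0.13, adjusted p = 0.00254. Phgdh, the first enzyme of serine synthesis, had 5.40 and 6.12 on day 2, against 6.86 and 6.91 on day 0 (-1.12 ± 0.23, adjusted p = 0.0196), and Mthfd2, a mitochondrial folate enzyme, had 8.42 and 8.40 on day 2, against 7.82 and 7.23 on day 0 and rose by 0.89 ± 0.18, adjusted p = 0.0201. Gclc, the rate-limiting subunit of glutathione synthesis, had 8.58 and 8.42 on day 2, against 6.87 and 6.65 on day 0, and rose 3.35-fold (1.74 ± 0.13, adjusted p = 0.000161). Hmox1, heme oxygenase, had 8.77 and 8.48 on day 2, against 9.46 and 9.27 on day 0 (-0.74 ± 0.16, adjusted p = 0.0247), and Srxn1, which repairs peroxiredoxins, had 8.58 and 8.48 on day 2, against 7.61 and 7.80 on day 0 (0.82 ± 0.13, adjusted p = 0.00546). Cryab, a small heat shock protein of the lens and muscle, had 6.94 and 7.04 on day 2, against 10.06 and 9.63 on day 0. It was 7.25-fold lower (-2.86 ± 0.17, adjusted p = 6.69e-05), and with Hspb6, 7.94 and 7.70 on day 2, against 8.50 and 8.48 on day 0 (-0.67 ± 0.14, adjusted p = 0.0226), it made up the 2 falls among 14 heat shock genes. These falls were 14.3% of that list. Hmox1 and Hspb6 were called in none of the fits without a KO array, Eda2r, Phgdh and Mthfd2 in 1 and Srxn1 in 2.

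Clock genes had 3 rises and 5 falls among 17, and fewer of these calls passed without 1 KO array, as was so over all genes. Per1 and Nfil3 each kept their call in 2 of those 4 fits and Dbp in all 4. Beside Per1, Nfil3, a repressor of clock output, had 8.31 and 7.59 on day 2, against 6.50 and 5.72 on day 0 (1.84 ± 0.33, adjusted p = 0.0117). Dbp, an activator of clock output, had 6.65 and 6.54 on day 2, against 7.91 and 8.35 on day 0 (-1.54 ± 0.16, adjusted p = 0.000785), and Nr1d2, Nr1d1, Tef and Per3 fell while Arntl rose. Of 19 imprinted genes Dlk1 and Sgce fell, Sgce with 8.34 and 8.39 on day 2, against 9.11 and 9.09 on day 0 (-0.73 ± 0.15, adjusted p = 0.022) and no call in the fits without a KO array. The calls made up 47.1% of the clock list and 10.5% of the imprinted list, beside 5.7% of all genes. All 19 ribosomal protein genes measured had positive values, as had 11679 of all 22180 genes. The ribosomal median was 0.27 in KO and 0.27 in WT cells, and 1 of these genes was called in KO cells (5.26%). That gene, Rps7, had 6.42 and 6.38 on day 2, against 5.87 and 5.58 on day 0 (0.67 ± 0.14, adjusted p = 0.02) and was called in 1 of the 4 fits without a KO array.

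**Figure D4:**
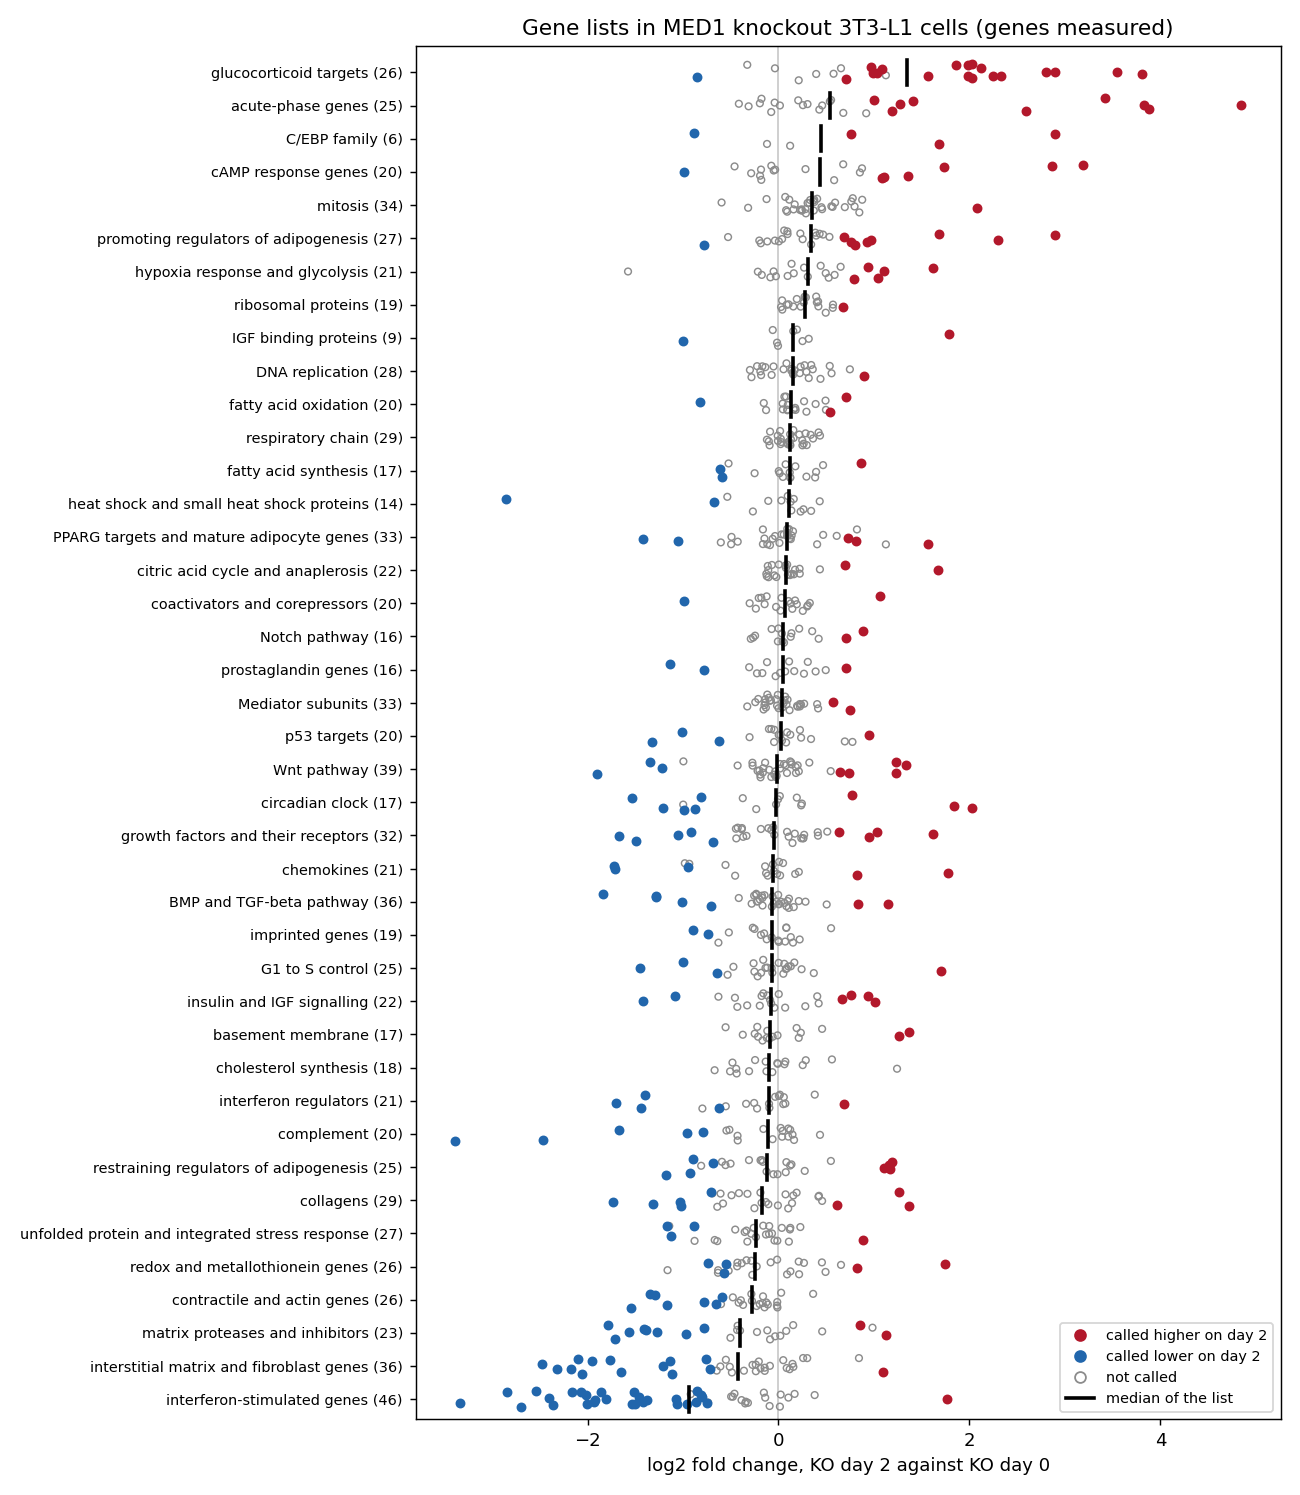
Log2 fold changes of KO day 2 against KO day 0 (horizontal axis) for the measured genes of 41 lists, each gene a point, with genes called higher in red, called lower in blue and not called as open circles, and a black bar at the median of the list. Lists are ordered by their median, from glucocorticoid targets at 1.35 to interferon-stimulated genes at -0.94, and the number of genes measured stands after each name.

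Some of the largest changes lay outside these lists. Emb, embigin, a partner of lactate transporters, had 8.62 and 8.89 on day 2, against 5.16 and 5.90 on day 0, and rose 9.36-fold (3.23 ± 0.23, adjusted p = 0.000156). Its WT rise was 1.75, and the difference of 1.48 did not pass (adjusted p = 0.588). Prg4, the lubricant protein lubricin, had 6.96 and 7.04 on day 2, against 3.94 and 4.11 on day 0 (2.97 ± 0.14, adjusted p = 2.89e-05), and Ceacam1, an adhesion protein that promotes insulin clearance in liver, had 7.10 and 7.61 on day 2, against 4.90 and 4.88 on day 0 (2.46 ± 0.21, adjusted p = 0.0003). Among the falls, Akap12, a scaffold for protein kinase A, had 5.82 and 5.86 on day 2, against 9.05 and 8.43 on day 0 (-2.90 ± 0.27, adjusted p = 0.000412). Cdsn, an adhesion protein of the skin barrier, had 6.52 and 6.14 on day 2, against 9.38 and 8.74 on day 0 (-2.73 ± 0.21, adjusted p = 0.000161), while limma called 0 of the 7 epithelial markers between the days, with 0 at an unadjusted p of 0.05. Itgbl1, an integrin-like secreted protein, had 3.97 and 4.08 on day 2, against 6.84 and 6.65 on day 0 (-2.72 ± 0.13, adjusted p = 2.89e-05), and Syne1, which ties the nucleus to actin, had 6.90 and 6.63 on day 2, against 9.18 and 9.38 on day 0 (-2.52 ± 0.20, adjusted p = 0.000174). Rab7b, a GTPase of late endosomes, had 4.36 and 4.78 on day 2, against 6.99 and 7.05 on day 0 (-2.45 ± 0.17, adjusted p = 0.000115). Trim30d, of a family that regulates innate signals, had 3.22 and 4.66 on day 2, against 6.43 and 6.30 on day 0, with 1 of the 2 day 2 arrays under its lower quartile (-2.43 ± 0.36, adjusted p = 0.00427). All of these calls were kept in each of the 4 fits without a KO array.

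Set beside WT cells, the KO response ran the same way for most of its genes. Of the 1265 genes called in KO cells, 1029 were called in WT cells too (81.3%), which is 51.1% of the 2012 WT calls, and 1028 of them had the same direction, Igfbp3 being the exception. Over all genes 9.07% were called in WT cells, 3.44% higher and 5.64% lower. A further count is 236 KO calls that were not WT calls, and 12 KO calls had the opposite sign in WT. Over all genes the 2 log2 fold changes had a Pearson r of 0.79 and a Spearman rho of 0.578, a description over genes, which are not replicates. Same-numbered KO and WT arrays of a day deviated together, and both sets of calls share 1 estimate of spread per gene. How far this raises the likeness of the 2 responses was not tested. The KO genes called higher had a median log2 fold change of 0.89 in KO and 0.88 in WT cells, and those called lower -0.88 in KO and -0.91 in WT cells. Chosen by WT calls instead, the medians were 0.60 in KO and 0.79 in WT cells for genes higher on day 2 and -0.66 in KO and -0.85 in WT cells for genes lower. Choosing genes by the calls of 1 genotype favours larger values in that genotype. These medians therefore do not measure which response was larger.

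Limma called 0 of 22180 genes (0.0%) for the KO response minus the WT response. At an unadjusted p of 0.05 there were 941 of 22180, a smaller share than the 0.05 that this threshold passes where no gene differs. The smallest adjusted p was 0.103, and the fit of all 19 arrays called 11 and that with the replicate number as a term 1. Same-numbered KO and WT arrays of a day deviated together, with correlations over genes of 0.353 on day 0 and 0.296 on day 2. With them as blocks, an alternative chosen after seeing the data, 1 gene was called, Pip (adjusted p = 0.00459), and 1717 passed an unadjusted p of 0.05. Of the named genes Pip, which encodes prolactin-induced protein, had the largest difference. It had 5.80 and 4.54 on KO day 2, against 3.27 and 3.24 on KO day 0. Both KO day 0 arrays lay under their lower quartile, and the KO day 2 mean lay 3.16-fold above that quartile. The 2 KO day 2 arrays stood well apart, and this fold leaves out their spread. Pip was called higher (adjusted p = 0.0164), a call kept in 1 of the 4 fits without a KO array. In WT cells Pip had 9.85 and 9.14 on day 2, against 3.38 and 2.93 on day 0, with the day 2 mean 63.4-fold above the lower quartile. Agt, angiotensinogen, had 7.28 and 7.72 on KO day 2, against 6.70 and 6.97 on KO day 0, and was not called (adjusted p = 0.0871). In WT cells Agt had 8.86 and 8.47 on day 2, against 6.43 and 6.37 on day 0, and the difference of -1.61 had an adjusted p of 0.326.

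Of the named genes the 6 largest positive differences were those of Oas2, Mmp13, Mx1, Ddx60, Apol9b and Ifit1. Mmp13, a collagenase, had 4.17 and 4.03 on KO day 2, against 4.43 and 4.64 on KO day 0, and was not called (adjusted p = 0.185). In WT cells Mmp13 had 4.90 and 5.14 on day 2, against 7.54 and 7.22 on day 0, and the difference of 1.92 had an adjusted p of 0.103. Oas2, Mx1, Apol9b and Ifit1 are on the list of interferon-stimulated genes. Oas2, a sensor of double-stranded RNA, had 5.24 and 4.93 on KO day 2, against 5.33 and 5.62 on KO day 0, and was not called (adjusted p = 0.49). In WT cells Oas2 had 4.56 and 4.55 on day 2, against 7.02 and 7.82 on day 0, and the difference of 2.48 had an adjusted p of 0.161. Mx1, a GTPase against viruses, had 3.60 and 3.62 on KO day 2, against 4.22 and 4.84 on KO day 0, and was not called (adjusted p = 0.145), while WT cells had 3.65 and 3.75 on day 2, against 5.99 and 7.04 on day 0. Ddx60, a helicase, had 3.07 and 3.35 on KO day 2, against 4.33 and 4.86 on KO day 0. Its KO day 2 arrays lay under their lower quartile, and the KO day 0 mean lay 2.1-fold above that quartile. Ddx60 was called lower (adjusted p = 0.014), a call kept in 1 of the 4 fits without a KO array. Apol9b, an apolipoprotein L, had 4.38 and 4.22 on KO day 2, against 6.17 and 6.58 on KO day 0, and fell by 2.07 ± 0.21 (adjusted p = 0.00062), against a change of -3.88 in WT cells. For Oas2, Mx1, Ddx60 and Apol9b every KO day 0 array lay below every WT day 0 array.

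**Figure D5:**
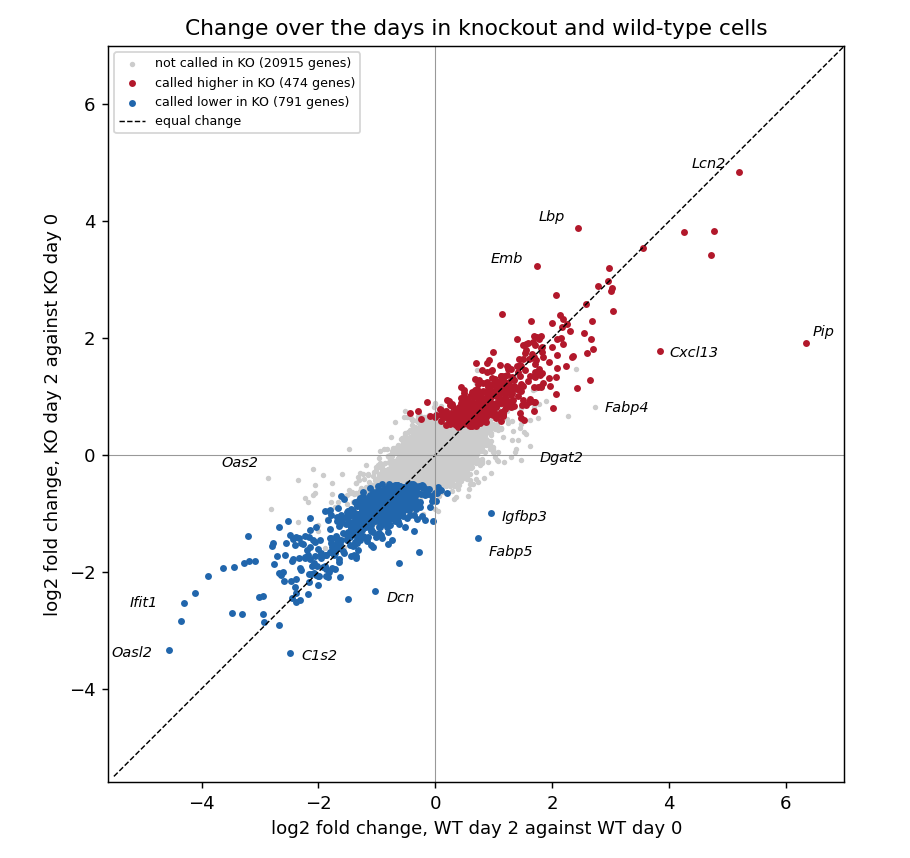
Log2 fold change of day 2 against day 0 in KO cells (vertical axis) against that in WT cells (horizontal axis) for 22180 genes, with the 474 genes called higher in KO cells in red, the 791 called lower in blue, the rest in grey and the dashed line at equal change. Most coloured points lie in the quadrants of equal sign, Pip, Cxcl13 and Fabp4 lie below the line on the right, Ifit1 and Oasl2 above it on the left, and Igfbp3 and Fabp5 in the lower right quadrant.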

How the data were processed

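The deposited values are log2 expression from RMA and the Transcriptome Analysis Console, per the submitters' processing notes; the genome build is not given in the sources used here, and the number of arrays limits the precision. Of 41345 clusters, 23521 had 1 gene symbol, 1814 several and 16010 none; where a gene had several clusters (1082 genes), the one with the highest mean over 19 arrays was kept. The 8 cell arrays, grouped by title, were fitted in limma 3.58.1 (R 4.3.3) with lmFit and eBayes, two-sided, with Benjamini-Hochberg adjustment over 22180 genes and a threshold of 0.05. In simulated data with 200 changed genes among 22180, the same fit recovered 55% at 2-fold and 97.5% at 4-fold, with 5 false calls each. The simulated noise was independent between arrays and only KO day 2 was shifted, whereas same-numbered real arrays deviated together. These rates therefore need not hold for the real data. Named were a core list, the 15 largest changes each way, up to 3 called genes of each of 41 lists, and the 6 largest differences of response each way. Members and lists were chosen with earlier results of these data known. Where both arrays of the dimmer group lay under their lower quartile, the fold given is that of the brighter group's mean over that quartile. This rule was set after values were seen, and such a fold leaves out the spread between arrays. Promoters are RefSeq, GRCm38.p6. Alternatives covered array, gene, day-label and normalization choices.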

Additional observations from a re-analysis of the deposited data

Results flagged for a closer look

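Igfbp3, an IGF binding protein, fell by 1.0 on the log2 scale in KO cells and rose by 0.95 in WT cells, where both KO day 2 arrays lay below both KO day 0 arrays and both WT day 2 arrays above both WT day 0 arrays. The KO response minus the WT response was -1.946 and did not pass (adjusted p = 0.103). Fabp5, a fatty acid carrier, fell by 1.42 in KO cells, and its WT value of 0.73 was not called, with its arrays again separated in opposite directions in the 2 genotypes. The difference was -2.153 and did not pass (adjusted p = 0.451). The KO call of Igfbp3 was kept in 2 of the 4 fits without a KO array and that of Fabp5 in 1. The KO call of Fabp5 was also lost with the mean over all clusters of a gene. On the arrays whose labels agree the KO change was -0.79 for Fabp5 and -1.339 for Igfbp3.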

How the results depend on the processing

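Days by source label, which set the replicate 2 arrays against the replicate 1 arrays of each genotype, gave 0 calls (0 higher, 0 lower). Named genes then took the opposite sign or 0 with these log2 values, none called: Med1 0, Cebpa -0.168, Cebpd -0.106, Nr3c1 0.077, Rxra -0.042, Cidec 0.173, Cd36 -0.139, Srebf1 -0.536, Per1 -0.667, Zbtb16 -0.349, Orm3 -0.515, Rgs2 -0.136, Nr4a1 -1.096, Orm1 -0.16, C1s2 0.075, Oasl2 0.182, Usp18 0.051, Thbs2 0.251, Rab7b 0.238, Trim30d 0.656, Pde3b -0.157, Foxo1 -0.244, Id2 -0.312, Id3 -0.388, Fabp5 0.631, Plin4 0.011, Fads2 0.12, Me1 0.084, Pdk4 -0.157, Pcx -0.171, Idh2 -0.265, Vegfa -0.329, Egln3 -0.05, Med13l -0.092, Med9 -0.008, Ppargc1a 0.412, Myc -0.405, Ccnd1 0.212, Tlr3 0.299, Irf9 0.009, Cxcl13 -0.061, Ccl2 0.092, Col4a1 -0.053, Col4a2 -0.258, Dcn 0.186, Mmp9 0.344, Mmp3 0.314, Ccn4 0.113, Fzd4 -0.481, Tgfbi 0.591, Grem1 0.171, Pdgfc 0.211, Hey1 -0.045, Ptger4 0.151, Ptgis 0.103, Ptges -0.107, Eda2r 0.276, Phgdh 0.384, Mthfd2 -0.301, Gclc -0.19, Nfil3 -0.751, Dbp 0.168, Sgce 0.016, Rps7 -0.167, Mmp13 0.035, Mx1 0.324, Ddx60 0.403, Apol9b 0.121, Pip -0.642. The arrays whose labels agree, an alternative chosen after seeing the data, gave 221 calls (77 higher, 144 lower), 215 of them shared with the 1265, and opposite signs for the uncalled Cidec (0.136), Cd36 (-0.02) and Srebf1 (-0.069). Adding a 2-fold minimum left 499 (193 higher, 306 lower). Leaving out single arrays gave 496 to 1282 calls, 178 to 483 higher and 297 to 799 lower. Without a KO array there were 517 (day 0 replicate 1), 564 (day 0 replicate 2), 496 (day 2 replicate 1) and 605 (day 2 replicate 2), with fewer samples in each such fit. For the difference of responses these fits gave 0 to 2 calls, all 19 arrays 11 and the replicate block 1. Signs of uncalled genes turned for Adipoq (-0.065 to 0.243), Cidec (-0.155 to 0.082), Cd36 (-0.168 to 0.406), Retn (-0.062 to 0.283), Scd1 (-0.503 to 0.739) and Slc2a4 (-0.279 to 0.045). Of 121 named calls, 72 were kept in all 4 fits without a KO array and 61 on the arrays whose labels agree. The replicate block gave 1660 calls, 1262 shared with the 1265. Equal numbers are not known to pair samples: deviations of same-numbered arrays correlated at 0.353 between KO and WT on day 0, 0.296 on day 2, 0.131 and 0.134 between KO and WT of different days, 0.169 between the KO days and 0.033 between the WT days. The replicate block of each day (same-numbered KO and WT arrays), chosen after seeing the data, gave 1 call for the difference, Pip. Of 121 named calls, 15 were lost under at least 1 of the 14 other settings that leave out no KO array and keep the titles. The other settings gave 1186 to 1468 calls. For dim genes the folds are given over the lower quartile and leave out the spread between arrays.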
